A study of Mus musculus with 69 samples.

Results

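The 9 genes described here make, load and guide the signal of the inhibitory neurons of the hippocampus. They were taken by name from a table of 9930 protein-coding genes. Gad1 and Gad2 encode the glutamate decarboxylases that make GABA, and Slc32a1 encodes the transporter that loads GABA into synaptic vesicles. Dlx1 and Dlx2 encode homeodomain transcription factors of the embryonic ganglionic eminences, and Lhx6 encodes a LIM homeodomain factor that acts after them in interneurons of the medial eminence. Erbb4 encodes a receptor tyrosine kinase for neuregulins, Reln encodes the secreted protein reelin, and Nxph1 encodes neurexophilin 1, a secreted ligand of alpha-neurexins. All 9 passed the filter on low counts at both ages.

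GABA is the main inhibitory transmitter of the adult hippocampus. It is made from glutamate in the interneurons, which are born in the ventral forebrain and migrate into the hippocampus before birth. The cytosol holds much of the product of Gad1, and the product of Gad2 is concentrated at nerve terminals. Dlx1, Dlx2 and Lhx6 set the fate and migration of these cells in the embryo and stay on in many mature interneurons. Erbb4 is found above all in parvalbumin interneurons, where neuregulins act on their synapses. Reelin is secreted by Cajal-Retzius cells early in life and later mainly by interneurons.

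RNA was sequenced from the hippocampus of 69 male mice, 1 library per animal, and deposited as raw counts per gene. The mice either lacked Cdh13, which encodes the cell adhesion protein T-cadherin (knockout), or were wildtype. Daily from P1 to P14, pups either spent 3 h away from their mother (separated) or were handled only (control). They were killed at P66, as adults, or at P22, the day of weaning. At P66 there were 7 separated knockout, 7 control knockout, 10 separated wildtype and 7 control wildtype animals. At P22 there were 10 separated knockout, 9 control knockout, 11 separated wildtype and 8 control wildtype animals. The animals came from 2 rounds of breeding, called cohorts, and both cohorts are present in every group. The labels used here name no litters, and separation was applied to whole litters, so p-values for rearing come out too small where littermates are alike. The Cdh13 gene lies beyond the end of the table and was not analysed here, so no count checked the genotype labels. Within the part held the libraries had 11.3 to 16.4 M counts (median 13.3 M). In whole-tissue RNA, fewer cells of a type and less RNA per cell cannot be told apart, and this holds for every result below.

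The members lie on chromosomes 1, 2, 5 and 6 of the GRCm38 build. Gad1 (ENSMUSG00000070880.10) spans bases 70553072 to 70602014 of chromosome 2 on the plus strand. Gad2 (ENSMUSG00000026787.3) spans 22622205 to 22693874 of chromosome 2 on the plus strand, and Slc32a1 (ENSMUSG00000037771.11) spans 158610767 to 158615748 of the same chromosome and strand. Dlx1 (ENSMUSG00000041911.3, 71528113 to 71533981, plus strand) and Dlx2 (ENSMUSG00000023391.8, 71543408 to 71546754, minus strand) are neighbours on chromosome 2 with 9426 bases between them. Lhx6 (ENSMUSG00000026890.19) spans 36081953 to 36105408 of chromosome 2 on the minus strand. Erbb4 (ENSMUSG00000062209.15) spans 68032186 to 69108059 of chromosome 1 on the minus strand. Reln (ENSMUSG00000042453.14) spans 21884454 to 22344702 of chromosome 5 on the minus strand. Nxph1 (ENSMUSG00000046178.3) spans 8948431 to 9249032 of chromosome 6 on the plus strand. Antisense genes share 697 bases (24.9%) of the exons of Slc32a1, 335 bases (6.21%) of Dlx1 and 246 bases (1.04%) of Reln. Whether the counting used strand is not given in the sources used here. Reads of these shared bases can therefore not be told apart from reads of the antisense partners. Lhx6 shares 104 exon bases (2.16%) with Gm27953 on its own strand, where strand would not separate the reads.

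The sequences below lie just before the starts of 4 members and are shown because the results turn on how these genes move together: Gad2 with Erbb4 and Slc32a1, and Dlx2 with its neighbour. They are read 5′ to 3′ from RefSeq (GRCm38.p6), and capitals mark matches to a motif searched.
Gad2, chr2:22622077-22622204, plus strand: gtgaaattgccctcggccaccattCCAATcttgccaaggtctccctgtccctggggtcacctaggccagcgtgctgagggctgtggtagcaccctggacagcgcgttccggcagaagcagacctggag
Slc32a1, chr2:158610508-158610757, plus strand: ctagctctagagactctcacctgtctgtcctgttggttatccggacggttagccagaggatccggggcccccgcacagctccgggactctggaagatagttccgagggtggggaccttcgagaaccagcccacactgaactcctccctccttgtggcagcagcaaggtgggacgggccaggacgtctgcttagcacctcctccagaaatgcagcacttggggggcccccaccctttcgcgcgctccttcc
Erbb4, chr1:69108060-69108309, minus strand: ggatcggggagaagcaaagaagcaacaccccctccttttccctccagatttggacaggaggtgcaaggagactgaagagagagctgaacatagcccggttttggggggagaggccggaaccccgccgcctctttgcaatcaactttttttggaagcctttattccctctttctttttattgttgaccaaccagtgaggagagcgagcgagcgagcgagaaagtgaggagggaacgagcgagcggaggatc
Dlx2, chr2:71546755-71547004, minus strand: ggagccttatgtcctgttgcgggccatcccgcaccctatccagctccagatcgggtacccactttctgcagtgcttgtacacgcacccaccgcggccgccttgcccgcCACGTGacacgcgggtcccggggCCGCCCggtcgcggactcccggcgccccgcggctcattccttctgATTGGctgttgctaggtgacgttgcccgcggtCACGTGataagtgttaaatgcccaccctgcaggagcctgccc

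The members had 11 windows of 250 bases before a start in all, and 6 motifs were searched in them on both strands. The TATA box, TATAAA, occurred in 12.4% of 32851 windows of the same kind and in 1 of the 11, that of Gad1. The core often bound by homeodomain proteins, TAATTA, occurred in 4.84% of all windows and in 0 of the 11. The cyclic AMP response element, TGACGTCA, occurred in 1.55% of all windows and in 0 of the 11. CCAAT, the CCAAT box, stood in 33.9% of all windows and in 5 of the 11, those of Gad2 and Dlx2 among them. GGGCGG, the GC box, stood in 32.7% of all windows and in 6 of the 11, with 6 copies before the start of Reln. CACGTG, an E box, stood in 6.02% of all windows and in 2 of the 11, those of Dlx2 and Reln. The windows of Slc32a1, Dlx1 and Erbb4 held none of the 6 motifs. Such matches describe letters and show no binding.

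The levels of the members ran in a steep order. Levels are counts per M counts held (CPM, M for mega), on library sizes scaled by the trimmed mean of M-values (TMM). Per kilobase of exon, Gad1 stood highest at 96.1 ± 5.67 CPM per kb (SD, n = 69), above Gad2 at 61.7 ± 7.35 and Slc32a1 at 51.05 ± 6.09. A gap followed. Nxph1 averaged 13.6 ± 1.17, Erbb4 10.5 ± 2.11, Lhx6 9.20 ± 0.981, Reln 8.51 ± 1.12 and Dlx1 7.90 ± 0.745 CPM per kb. Dlx2 was lowest at 3.83 ± 0.534 CPM per kb. Within libraries Gad1 stood above Gad2, Slc32a1 above Nxph1, and Dlx1 above Dlx2 in all 69. Gad2 stood above Slc32a1 in 63 libraries and Nxph1 above Erbb4 in 65. The order was least steady further down, with Erbb4 above Lhx6 in 46 libraries, Lhx6 above Reln in 52 and Reln above Dlx1 in 44.

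Counts behind these levels were large for most members. Gad1 had 7830 to 12761 counts a library (median 9670), and Gad2 had 3065 to 6398 (median 4850). Dlx2 had the fewest, 84 to 220 (median 143), so counting error weighs most on it. Across all 69 libraries Gad1 varied least, with a coefficient of variation of 5.90%, and Erbb4 varied most, with 20.1%.

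**Figure D1:**
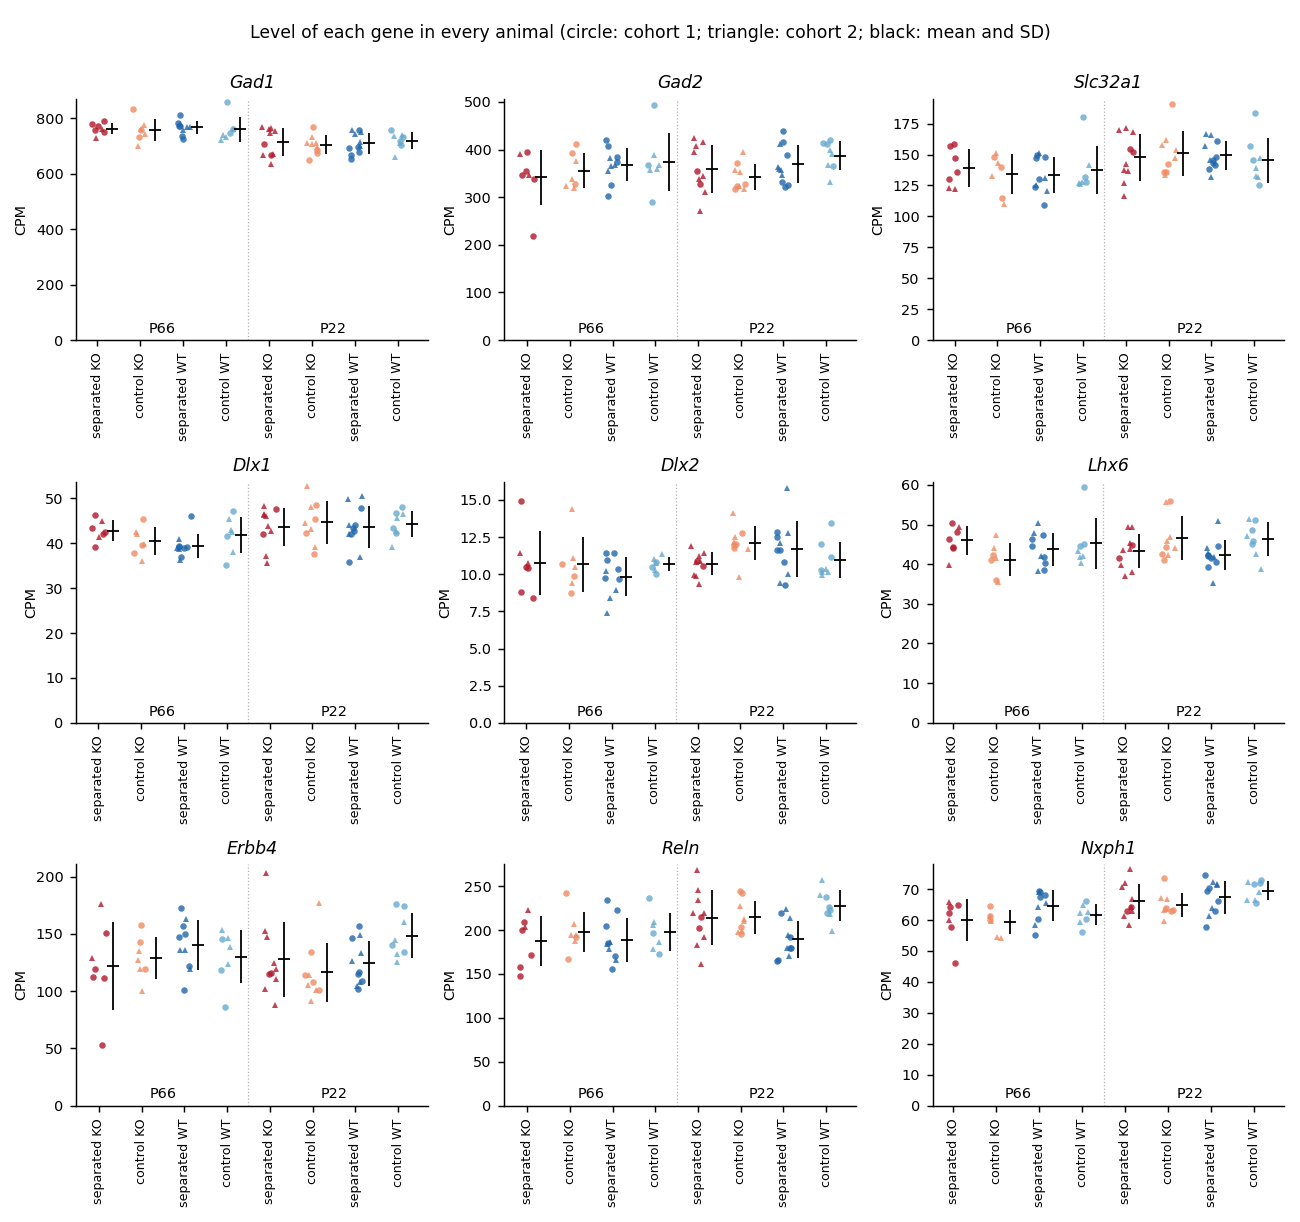
Level of each member in every animal, in CPM from 0 on a linear axis, with 1 panel per gene and the P66 groups left of the P22 groups; circles are cohort 1, triangles cohort 2, and black marks give the mean and SD. Erbb4 spreads from 52.9 to 203 CPM over all libraries, and every P66 group mean of Gad1 lies above every P22 group mean.

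Age was the factor that changed the members. Between P66 and P22, averaged over genotype and rearing, 1 member rose and 5 fell (edgeR quasi-likelihood test, Benjamini-Hochberg adjusted p under 0.05 over 7131 genes). Of all genes tested 52% passed, 26.2% higher and 25.8% lower at P66, so the count of 6 of 9 is near the background. All 6 changes were small, within 0.13 on the log2 scale in either direction. The median member changed by -0.10 on the log2 scale, against 0.01 over all genes.

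Gad1, whose enzyme makes most of the GABA of the brain, rose. It ranged from 700 to 858 CPM at P66 (median 760.0, n = 31), against 634 to 770 CPM at P22 (median 709, n = 38). Of the P66 animals 30 of 31 lay above the P22 median, although the ranges overlap. The log2 change was 0.10 ± 0.0188 (SE), with an adjusted p of 1.12e-05 by edgeR. Gad2 did not follow it past the test. Its median was 366 CPM at P66 and 358 CPM at P22, with a log2 change of -0.02 (95% interval -0.10 to 0.07, adjusted p = 0.720). With a per-library term for the tilt between genes poor and rich in GC bases it was -0.06 (edgeR adjusted p = 0.0543). The ratio of Gad1 to Gad2 counts averaged 2.15 ± 0.316 at P66 and 1.97 ± 0.194 at P22 (SD).

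Slc32a1, the gene of the vesicular loader, fell. It ranged from 109 to 180.0 CPM at P66 (median 132) and from 116 to 191 CPM at P22 (median 146), and 10 of 31 P66 animals lay above the P22 median. The log2 change was -0.13 ± 0.0395 (edgeR adjusted p = 0.00378). Averaged over animals, RNA of Gad1 and RNA of Slc32a1 thus differed in opposite directions between the ages, and the ranges of both genes overlap. From library to library within groups the levels of these genes went together (r = 0.43, group and cohort removed).

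The transcription factor genes Dlx1 and Dlx2 fell by similar amounts. Dlx1 had a median of 40.9 CPM at P66 (35.1 to 47.1) and of 43.8 CPM at P22 (35.6 to 52.8), a log2 change of -0.10 ± 0.0319 (edgeR adjusted p = 0.00802). Dlx2 had a median of 10.5 CPM at P66 (7.38 to 14.9) and of 11.3 CPM at P22 (9.25 to 15.8), a log2 change of -0.12 ± 0.0465 (edgeR adjusted p = 0.0314). For each gene 6 of 31 P66 animals lay above the P22 median. The ratio of Dlx1 to Dlx2 counts was 3.99 ± 0.541 at P66 and 3.90 ± 0.402 at P22. Lhx6, which acts after them, did not pass, with a median of 44.0 CPM at P66 and 43.9 CPM at P22 and a log2 change of -0.02 (95% interval -0.09 to 0.05, adjusted p = 0.663).

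RNA of both genes that encode secreted proteins fell. Nxph1 ranged from 46.2 to 69.4 CPM at P66 (median 62.3) and from 57.6 to 76.5 CPM at P22 (median 66.5). Its log2 change was -0.12 ± 0.0274 (edgeR adjusted p = 0.000115), and 5 of 31 P66 animals lay above the P22 median. Reln ranged from 148 to 242 CPM at P66 (median 192) and from 161 to 269 CPM at P22 (median 213). Its log2 change was -0.13 ± 0.0416 (edgeR adjusted p = 0.00734), again with 5 of 31 above. The receptor gene Erbb4 had a median of 135 CPM at P66 (52.9 to 176) and of 122 CPM at P22 (88.2 to 203). Its log2 change of 0.02 did not pass and had a wide interval, -0.12 to 0.16, and its sign was not stable: with the GC tilt as a term the change was -0.06 (edgeR adjusted p = 0.107).

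**Figure D2:**
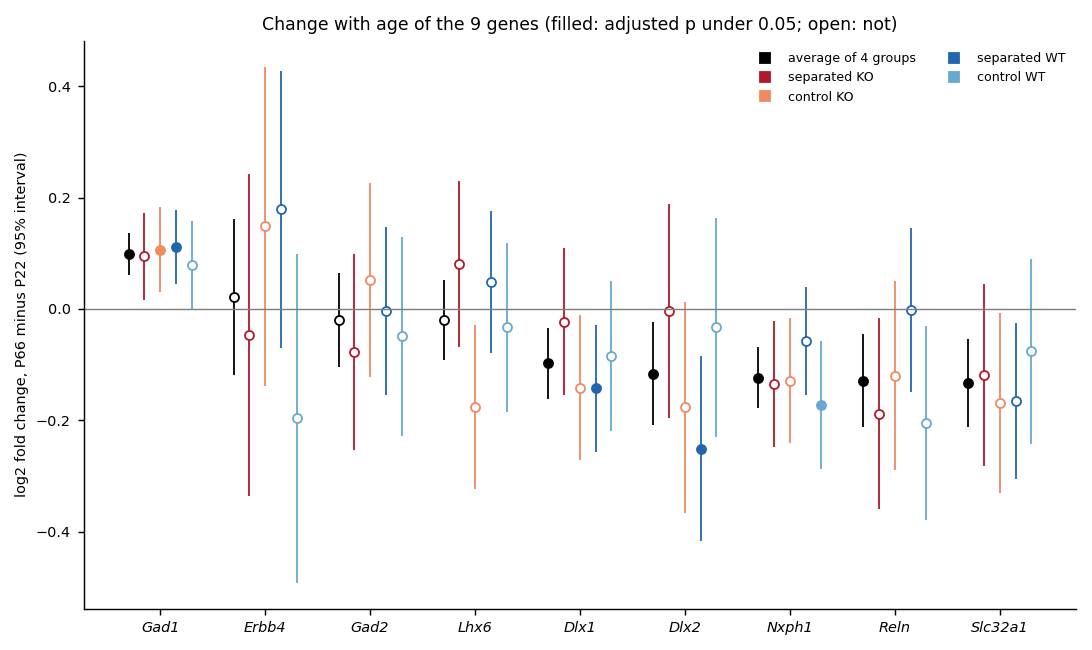
Log2 change between P66 and P22 on the vertical axis, with its 95% interval, for each member, averaged over the 4 genotype and rearing groups (black) and within each of them (colours); filled points passed an edgeR adjusted p under 0.05. Gad1 lies above 0 in all 4 groups, between 0.08 and 0.11, and Nxph1, Slc32a1, Reln, Dlx1 and Dlx2 lie below 0 in all 4. Some of these lie close to 0, such as Dlx2 in separated knockout (-0.003) and Reln in separated wildtype animals (-0.002).

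Within single groups fewer members passed, against backgrounds of 19.2% (separated knockout), 28.1% (control knockout), 30.8% (separated wildtype) and 18.9% (control wildtype) of all genes. No member passed in separated knockout animals. Gad1 rose in control knockout animals by 0.11 on the log2 scale (edgeR adjusted p = 0.0305). In separated wildtype animals Gad1 rose by 0.11 (edgeR adjusted p = 0.00774), Dlx1 fell by 0.14 (0.0480) and Dlx2 fell by 0.25 (0.0160). In control wildtype animals Nxph1 fell by 0.17 (edgeR adjusted p = 0.0251). With each library left out in turn, the call of Gad1 in control knockout animals was lost in 7 fits, most clearly without C1-30 at P66 (0.08, edgeR adjusted p = 0.148). That of Nxph1 was lost in 3 fits, that of Dlx1 in 23 and that of Dlx2 in 1 (without C2-90 at P22, adjusted p = 0.0537), and that of Gad1 in separated wildtype animals in 0. With the GC tilt as a term 2 members passed in separated wildtype animals, since Dlx1 was then at -0.14 with an edgeR adjusted p of 0.0575. In control knockout animals Nxph1 passed beside Gad1 (-0.16, edgeR adjusted p = 0.0122). These differences between groups did not pass a test of their own. No member passed for the interaction of age with genotype (0% of all genes called), with rearing (0.0421%) or with both (0.014%). The smallest p of a member for age by rearing was that of Lhx6 (log2 0.17, p = 0.0227, adjusted p = 0.641 by edgeR).

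Within each cohort these 6 members kept their signs, and fewer passed. Gad1 rose by 0.15 in cohort 1 (edgeR adjusted p = 0.000295) and by 0.06 in cohort 2 (0.069, not called). Slc32a1 changed by -0.10 in cohort 1 (0.228, not called) and fell by 0.18 in cohort 2 (0.00678). Nxph1 changed by -0.11 in cohort 1 (0.0889, not called) and fell by 0.12 in cohort 2 (0.0105). Reln, Dlx1 and Dlx2 were negative in each cohort without passing, between -0.09 and -0.15. With each library left out in turn, Dlx2 missed the threshold in 4 of 69 fits (edgeR adjusted p up to 0.0545). These were the fits without C1-32 (control wildtype), C1-11 (separated wildtype), C1-21 (control knockout) or C2-12 (separated knockout) at P22, named by cohort and animal number. The other 5 members passed in all 69 fits.

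Other cell types changed with age in the same libraries, some by more. Since 52% of all genes tested passed (26.2% higher and 25.8% lower), counts near these shares are not particular to a list. All 7 tested mature oligodendrocyte genes were lower at P66, with a median log2 change of -1.38, among them Ugt8a (-1.81), Cldn11 (-1.64), Gsn (-1.60) and Mag (-1.38). Of 5 genes of newborn neurons and stem cells 4 were lower (median -1.08), such as Igfbpl1 (-2.00) and Mki67 (-1.08), a marker of dividing cells. Of 11 genes of excitatory neurons 2 were higher and 7 lower (median -0.18), and their summed level was 4594 to 5786 CPM at P66 against 4789 to 6830 CPM at P22. Of 5 genes of Cajal-Retzius cells, an early source of reelin, 4 were lower (median -0.30), and their sum was 81.0 to 132 CPM at P66 against 106 to 179 CPM at P22. Of 5 astrocyte genes 4 were lower and 0 higher (median -0.15), such as Slc1a2 (-0.21), a glutamate transporter gene, and their sum was 7437 to 8757 CPM at P66 against 8136 to 9880 CPM at P22. Of 5 thalamic genes 1 was higher, Ntng1 (0.45), and 2 were lower, Gbx2 (-1.03) and Rgs16 (-0.27), and their sum was 106 to 167 CPM at P66 against 85.8 to 148 CPM at P22. The part of these cell types and regions in the changes of the members was not tested. With a score of the excitatory genes in the fit all 6 members stayed past the threshold and Lhx6 also passed (log2 -0.12, edgeR adjusted p = 0.00766). Most of these excitatory genes changed with age themselves, so this fit cannot tell their part in the changes.

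Genes related to the members by role moved both ways with age, against 26.2% of all genes higher and 25.8% lower. Of 5 genes of GABA uptake and breakdown 0 rose and 1 fell (median -0.05). Of 10 other interneuron transcription factors 1 rose and 5 fell (median -0.15). Sox6 (-0.25) and Prox1 (-0.25), which other cells also express, were among those that fell, and Nr2f2, a factor of caudal eminence interneurons, rose (0.22). Of 10 peptides and calcium-binding proteins 4 rose and 2 fell (median 0.13). Nos1, the neuronal nitric oxide synthase, rose by 0.47 and Calb1, the gene of calbindin, by 0.22, and the stress peptide gene Crh fell by 0.33. Of 13 fast-spiking and excitability genes 3 rose and 3 fell (median -0.02). The potassium channel subunit gene Kcnab1 rose by 0.17, and Elfn1, a postsynaptic organiser in somatostatin interneurons, fell by 0.16.

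Partners of reelin, ErbB4 and the inhibitory synapse gave small counts, against the same background of 52% of all genes. Of 5 reelin pathway genes 2 rose and 1 fell (median 0.00): Dab1, the adaptor that reelin signalling acts on, rose by 0.09, Src by 0.07, and Rapgef1 fell by 0.21. The only tested gene of the neuregulin and ErbB list was Btc, a ligand of ErbB receptors, which rose by 0.51 from a low level (1.40 CPM at P66, 0.965 CPM at P22). Nxph2, a paralogue of Nxph1, did not pass (-0.08, adjusted p = 0.491). Of 4 genes of the GABA-A receptor scaffold 3 rose (median 0.07): Shisa7 (0.11), Iqsec3 (0.07) and Slitrk3 (0.07).

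Neither genotype nor rearing changed any member past the test. At P22 no member passed for knockout against wildtype or for separated against control, nor did any of the 7036 genes tested (0%), while 289 and 217 genes had an unadjusted p under 0.05 (edgeR). At P66 0.0571% of 7001 genes passed for genotype (0.0143% higher and 0.0429% lower in knockouts) and 0.371% for rearing (0.129% higher and 0.243% lower in separated animals), and no member was among them. The same held for the interaction of genotype and rearing and for each simple comparison, at both ages. For Gad1 the intervals were narrow: the log2 difference between knockout and wildtype was -0.02 at P22 (95% interval -0.08 to 0.03) and -0.01 at P66 (-0.06 to 0.04). For Erbb4 they were wide, -0.34 to 0.01 at P22 and -0.34 to 0.12 at P66.

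Mean levels of the GABA genes lay close together over the 8 groups. Gad1 averaged 762 ± 19.7 CPM in separated knockout, 758 ± 40.7 in control knockout, 766 ± 23.7 in separated wildtype and 760.0 ± 45.5 in control wildtype animals at P66 (SD). At P22 the means were 714 ± 50.7 CPM in separated knockout, 704 ± 34.4 in control knockout, 710 ± 37.5 in separated wildtype and 719 ± 29.8 CPM in control wildtype animals. Slc32a1 averaged 134 to 139 CPM over the 4 groups at P66 and 145 to 151 CPM over those at P22. Gad2 averaged 341 to 374 CPM over the groups at P66 and 343 to 387 CPM at P22. Within each age every group of these 3 genes overlapped every other.

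Group means of the fate factors and Nxph1 differed by more in proportion than those of Gad1 in some cases, and no difference by genotype or rearing passed. Dlx1 averaged 39.4 to 42.8 CPM over the groups at P66 and 43.6 to 44.6 CPM at P22. Dlx2 averaged 9.85 to 10.8 CPM at P66 and 10.7 to 12.1 CPM at P22. Lhx6 averaged 41.1 to 46.02 CPM at P66 and 42.3 to 46.5 CPM at P22. Its log2 difference between separated and control animals at P22 was -0.12 (edgeR adjusted p = 0.999). Nxph1 averaged 59.3 to 64.7 CPM at P66 and 64.9 to 69.5 CPM at P22.

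**Figure D3:**
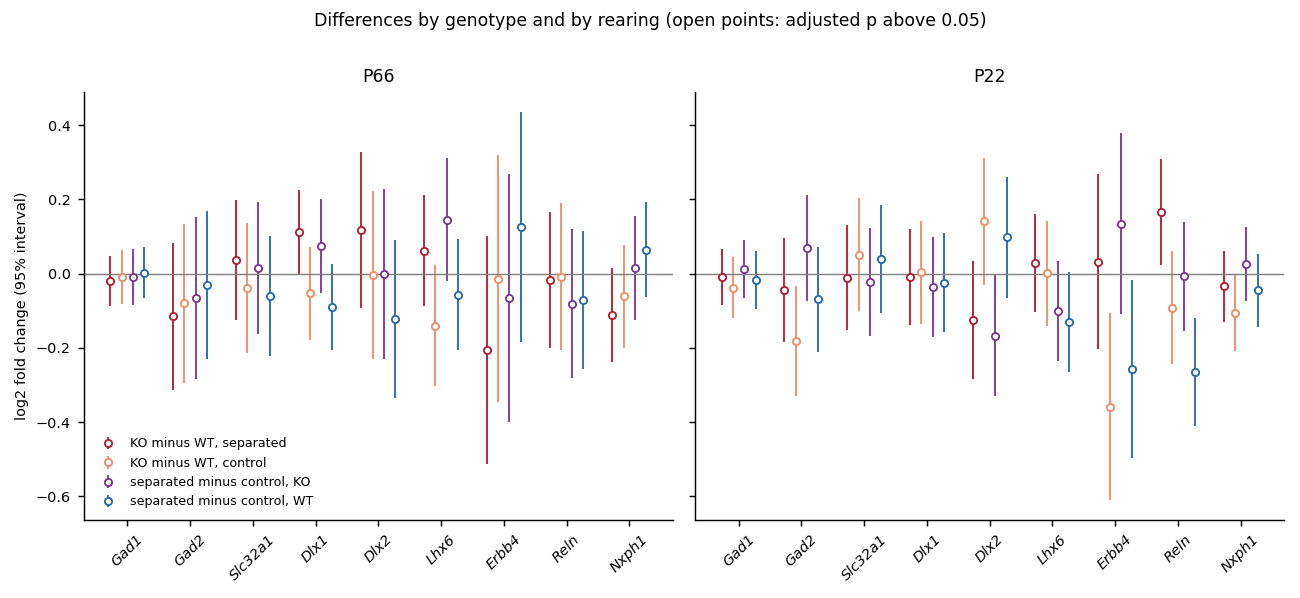
Log2 differences between knockout and wildtype within each rearing, and between separated and control within each genotype, for each member at P66 and P22, with 95% intervals; points are open because none passed an edgeR adjusted p under 0.05. The lowest values are those of Erbb4 (knockout against wildtype, control rearing, P22, -0.36) and Reln (separated against control, wildtype, P22, -0.27).

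Reln gave the smallest p of the members, in wildtype animals at P22, and did not pass. It ranged from 165 to 223.6 CPM in separated wildtype animals (median 180, n = 11), against 199 to 257 CPM in control wildtype animals (median 224.4, n = 8). All 11 separated animals lay below the control median, and 8 lay below the lowest control animal. The log2 difference was -0.27 ± 0.0718 (95% interval -0.41 to -0.12, p = 0.000688, rank 6 of 7036 genes), with an adjusted p of 0.713 by edgeR. The values within cohorts 1 and 2 were -0.30 and -0.22. In knockout animals at P22 the difference was -0.01, with 161 to 269 CPM in separated and 195 to 245 CPM in control animals, and the interaction was 0.26 (edgeR adjusted p = 0.584). At P66 the difference within wildtype animals was -0.07.

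Markers of other regions are given for the same comparison, and none passed. All 3 tested striatal markers had positive log2 differences (median 0.73), and their sum was 56.1 to 350 CPM in separated and 46.9 to 224 CPM in control animals. Of 8 choroid plexus genes 7 were positive (median 0.25). Of 5 Cajal-Retzius genes 4 were positive (median 0.07), yet their sum had the lower median in separated animals, 111 to 144 CPM (median 122) against 113 to 158 CPM in control animals (median 138). Of 5 thalamic genes 4 were positive (median 0.12), and here too the sum was lower, with a median of 107 CPM in separated and 124 CPM in control animals. Of 5 astrocyte genes 4 were negative (median -0.04), with sums of 8136 to 9597 CPM in separated and 8418 to 9730 CPM in control animals. Over all 69 libraries, with group and cohort removed, Reln correlated with a score of the astrocyte genes at r = 0.44 (adjusted p = 0.000765, permutation test). With a score of the Cajal-Retzius genes its r was 0.04, and no test was made. The part of these tissues and cells in the value of Reln was not tested.

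Erbb4 gave the largest value for genotype, also at P22 and under control rearing, and did not pass. It ranged from 91.1 to 177 CPM in control knockout animals (median 108, n = 9), against 126 to 176 CPM in control wildtype animals (median 143, n = 8). Of the 9 knockout animals 8 lay below the wildtype median and 7 below the lowest wildtype animal. The log2 difference was -0.36 ± 0.125 (p = 0.00665, edgeR adjusted p = 0.389), and it was -0.45 in cohort 1 and -0.26 in cohort 2. Gad2 gave -0.18 ± 0.0736 in the same comparison (edgeR adjusted p = 0.389), with 317 to 395 CPM in knockout and 333 to 420.3 CPM in wildtype animals. Separated wildtype animals at P22 had 102 to 157 CPM of Erbb4, a log2 difference of -0.26 to the same control wildtype animals (edgeR adjusted p = 0.753). Between control knockout and control wildtype animals all 8 choroid plexus genes had positive log2 differences (median 0.78, none passed), and their part in the values was not tested.

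The level of Erbb4 went with a measure made from other genes of the same libraries. For each library the mean log2 CPM of the 20% of genes poorest in GC (1380 genes, transcripts with at most 44.0% GC) was set against that of the richest 20% (1380 genes, at least 55.7%), with the members left out. This measure, called the GC tilt here, was chosen after seeing the data. What gives rise to the tilt, in the tissue or in the making of the libraries, was not tested. Values with the tilt removed are therefore a second view of the data and not corrected values. After the group means and the cohort difference were removed, Erbb4, whose transcript has 40.6% GC, correlated with the tilt at r = 0.89 and rho = 0.85 over 69 libraries (permutation test, adjusted p = 3e-05 for each, over 9 members, from the smallest p of 1e-05 that the permutations can give). Without the 2 libraries farthest from the median r was 0.844, and it was 0.906 in cohort 1 and 0.867 in cohort 2.

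The members lined up with the tilt by their own GC content. Gad2 (44.1% GC) had r = 0.78 and rho = 0.73, and Nxph1 (46.7%) r = 0.41 and rho = 0.27. Gad1 (47.3%), Reln (51.1%) and Dlx1 (54.6%) had r of 0.14, 0.03 and -0.05, with adjusted p of 0.306, 0.813 and 0.749 (permutation test). Lhx6 (56.2%) had r = -0.35 and rho = -0.38, Dlx2 (58.3%) r = -0.43 and rho = -0.30, and Slc32a1 (61.9%) r = -0.54 and rho = -0.56. The order of the 9 correlations is exactly the order of GC content. Part of this follows from how the tilt was made, since it sets genes poor in GC against genes rich in GC. Other genes of like GC were not compared, so neither the order nor the size of r is shown to be particular to the members. For Nxph1 the relation rests on few libraries, since r was 0.211 without the 2 farthest.

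**Figure D4:**
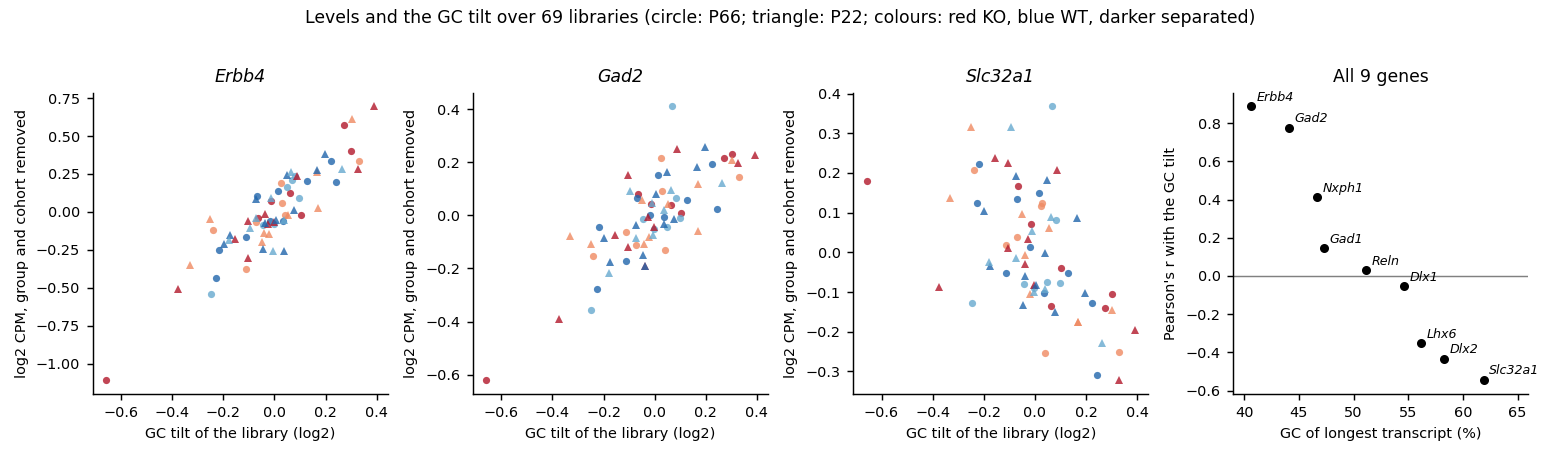
The first 3 panels plot log2 CPM of Erbb4, Gad2 and Slc32a1 against the GC tilt, both with group and cohort removed, with a point per library (circles P66, triangles P22, red knockout, blue wildtype, darker separated), and the last plots Pearson r with the tilt against the GC percent of the longest transcript. Erbb4 and Gad2 climb with the tilt, Slc32a1 declines, and r drops without exception over the 9 genes from 0.89 (Erbb4, 40.6% GC) to -0.54 (Slc32a1, 61.9% GC).

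Between the groups with the largest genotype differences of Erbb4 and Gad2 the tilt overlapped. At P22 it averaged -0.13 ± 0.202 in control knockout animals (-0.44 to 0.19, n = 9) and 0.06 ± 0.127 in control wildtype animals (-0.10 to 0.30, n = 8; log2 units, SD), and this difference was not tested. With the tilt as a term in the fit the difference of Erbb4 between these groups was -0.13 in place of -0.36, and that of Gad2 was -0.06 in place of -0.18. The difference of Reln between separated and control wildtype animals at P22 was -0.25 with the tilt in place of -0.27. For age the same 6 members passed with and without it, and the value of Erbb4 had the opposite sign.

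Some members went with the astrocyte genes from library to library. The score of the astrocyte genes was compared with all 9 members over 69 libraries, with group and cohort removed and p adjusted over the 9. Scores of other cell types and regions were correlated with the members too, without a test, and p was not adjusted for this choice. With the score of the excitatory genes r ran from -0.53 (Lhx6) to 0.15 (Erbb4), so astrocyte genes are not alone in such values. The astrocyte score includes Slc6a11, a GABA transporter gene. By itself Slc6a11 correlated with Slc32a1 at r = 0.71 and, with the GC tilt removed, with Gad1 at 0.59. Values of the score without Slc6a11 were not determined. How many of all tested genes reach such values with the astrocyte score was not determined. Among all pairs of tested genes 32.1% reached an r of 0.282 in size. The number of members that passed can therefore not be read as particular to them. For Reln (r = 0.44) rho was 0.46 (adjusted p = 0.000405, permutation test), and r was 0.466 without the 2 farthest libraries, and 0.712 in cohort 1 against 0.167 in cohort 2. Slc32a1 had r = 0.54 and rho = 0.55 (adjusted p = 9e-05 for each, permutation test), 0.532 without the 2 farthest, and 0.587 and 0.492 in cohorts 1 and 2. Erbb4 went the other way, with r = -0.40 and rho = -0.42 (adjusted p = 0.00141 and 0.00105, permutation test), -0.450 without the 2 farthest, and -0.447 and -0.362 in cohorts 1 and 2. Gad1 (r = 0.32, rho = 0.28) passed as well, and so did Gad2 (r = -0.26, rho = -0.32), with adjusted p of 0.0146 and 0.0454 for r and of 0.037 and 0.0171 for rho (permutation test). Without the 2 farthest they had 0.245 and -0.310, in cohort 1 0.429 and -0.371, and in cohort 2 0.224 and -0.135. Dlx2 passed by r alone (0.26, rho 0.22), with adjusted p of 0.0454 and 0.0996 (permutation test), 0.296 without the 2 farthest, and 0.408 and 0.137 in cohorts 1 and 2. Dlx1, Lhx6 and Nxph1 had r of 0.14, 0.18 and -0.12 and rho of 0.11, 0.19 and -0.10, and did not pass. With the GC tilt removed as well Reln had r = 0.54, Gad1 0.47 and Slc32a1 0.35 (adjusted p = 9e-05, 0.000225 and 0.00897, permutation test). The other 6 members did not pass then, and Erbb4 had r = 0.15 and Gad2 r = 0.26, both with the opposite sign.

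The members also varied together between animals of the same group. Of 36 pairs, 17 were correlated at an adjusted p under 0.05 (permutation test on Pearson r over 69 libraries, group and cohort removed), 15 positively and 2 negatively, with a median r of 0.22. The smallest of these was 0.282 in size, which 32.1% of all pairs of 7131 tested genes reached and 47.2% of the 36. Of pairs of a member and another gene 30.2% reached it. With the tilt removed as well, 26 pairs passed, 72.2% of the 36, at a size of at least 0.261 that 20.8% of all gene pairs reached. Pairs of a member and another gene reached that size in 17.7%. By then 35 of 36 correlations were positive, against 49.2% of all gene pairs, and the median was 0.35. Before removal of the tilt 31 of 36 were positive, against 49.1% of all gene pairs. The 36 pairs are built from only 9 genes and are not independent. Each bound was the smallest passing value of these same pairs, so these shares are a description without a test.

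Gad2 and Slc32a1 changed most between both views. These genes make and load the same transmitter at the terminal, and their correlation was 0.01 (rho -0.03, adjusted p = 0.965, permutation test). With the tilt removed it was 0.81 (rho 0.77, adjusted p = 7.2e-05, permutation test), and 0.767 without the 2 farthest libraries. It was 0.889 at P66 and 0.736 at P22, and 0.852 and 0.754 in cohorts 1 and 2. Among 7130 genes Slc32a1 was in rank 3161 for likeness to Gad2, and in rank 1 once the tilt was removed, and Gad2 was then in rank 1 for Slc32a1.

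Slc32a1 and Erbb4 moved nearly as much, with r = -0.29 (adjusted p = 0.0366, permutation test), and 0.50 with the tilt removed. Gad2 and Erbb4, both poor in GC, had r = 0.83, and 0.47 with the tilt removed. Gad1 and Slc32a1 had 0.43 and then 0.61, Gad2 and Lhx6 0.08 and then 0.60, and Gad1 and Gad2 0.41 and then 0.47. Slc32a1 and Lhx6, both rich in GC, had 0.62 and then 0.55. The neighbours Dlx1 and Dlx2 had 0.46 (adjusted p = 0.000504, permutation test) and then 0.48. Reln and Dlx1 had -0.02 in both views.

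**Figure D5:**
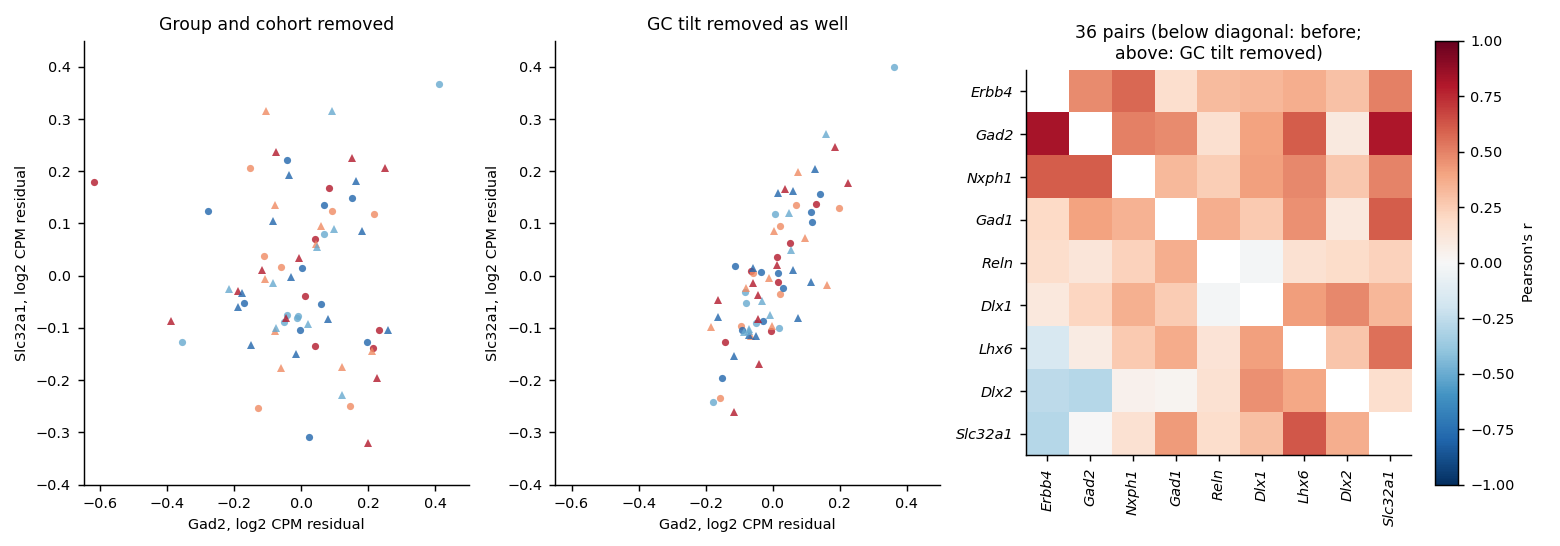
The first 2 panels plot Slc32a1 against Gad2 in log2 CPM over 69 libraries, with group and cohort removed and then with the GC tilt removed as well; circles are P66, triangles P22. The last panel colours Pearson r of all 36 pairs, below the diagonal before and above it after removal of the tilt, on a scale of -1 to 1, and Gad2 with Slc32a1 is 0.01 below and 0.81 above.

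Genes outside the set that were most like each member are given as a description with no test. With group and cohort removed, Slc6a11, a GABA transporter gene of astrocytes, was among the 3 genes most like Slc32a1 (r = 0.71). Gad2 was most like D3Ertd751e (0.87, 38.99% GC), Gabrg1 (0.84, 35.3% GC) and its fellow member Erbb4. Erbb4 was most like Nyap2 (0.94, 38.99% GC), Bmpr2 (0.93, 41.01% GC) and Vcpip1 (0.93). Dlx1 was most like Oprk1 (0.50), a kappa opioid receptor gene, and Dlx2 was most like Plk3 (0.61). Lhx6 was most like Ndn (0.71) and Resp18 (0.70), Reln was most like Smarcal1 (0.71), and Nxph1 was most like Dzank1 and Sox5 (0.75 each). With the tilt removed Slc32a1 (0.61) and Slc6a11 (0.59) were among the 3 genes most like Gad1. Gad2 and Slc32a1 were each most like the other, followed for both by the imprinted genes Magel2 (0.68 with Gad2, 0.65 with Slc32a1) and Peg10 (0.68 and 0.64). The correlations share the libraries, and high values among genes poor in GC go with the tilt described above.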

How the data were processed

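Raw counts of reads per gene were deposited by the authors as 1 table with a column per animal, without normalization. The tools named in the submitters' processing notes are FastQC 0.11.4, cutadapt 1.16, limma 3.34.9 and edgeR. Which aligner, counter, strand setting and build made the counts is not given in the sources used here. As held, the table ends on chromosome 8 and gave 9930 complete gene records, after 1 broken record was left out. Of the identifiers 9290 were found with the same version in GENCODE M21, all at the same position, so positions are on GRCm38. All 69 columns were mapped to a sample. In a duplicate check of all 272 pairs within groups the chi-square divided by its degrees of freedom lay between 4.47 and 88.0, so no pair agreed within counting error. The animals of a group are separate mice.

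The fits were made with edgeR 4.0.16 in R 4.3.3: filterByExpr (minimum count 10, minimum total 15), TMM scaling and a quasi-likelihood fit with a term per group and for cohort. Genotype and rearing were fitted within each age (7036 genes at P22, 7001 at P66), and age in 1 fit of all libraries (7131 genes). P-values were adjusted by Benjamini-Hochberg over all genes tested, with a threshold of 0.05. Standard errors were taken from the F statistic and the log2 change. The fits were tested on simulated data. GC content is that of the longest GENCODE M21 transcript, and 96.9% of tested genes had a value. Correlations used log2 CPM (prior count 2) and 100000 permutations.

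The 9 members may be named in any comparison, and the figures show all 9. Of each other list up to 4 called genes may be named, or up to 2 with the smallest p where none was called, and likeness gives genes among the nearest 3. Some genes that fall under this rule are left out of the text and not reported here. Of several marker scores correlated with the members, only the astrocyte score was tested, after the data were seen. The members, the lists and the comparisons were chosen with earlier results of these data known. Alternatives were RLE scaling, no scaling, no and stricter count filters (at least 1 CPM in 7 libraries), DESeq2 1.42.0, limma-voom with limma 3.58.1, no cohort term, each cohort alone, 1 fit of all libraries, scores of choroid plexus and excitatory neuron genes as covariates, an adjusted p under 0.1, and leaving out each library. The GC tilt as a term, and leaving out the 2 libraries with the most extreme member values, were added after the data were seen. The counting depth covers counting error only and says nothing of the spread between animals.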

Additional observations from a re-analysis of the deposited data

Results flagged for a closer look

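In 63 sets of 1 member in 1 group, each of at most 10 animals, the highest and lowest animal were compared with their neighbours, and 9 sets had an animal set apart by the Dixon test. Chance flags about 5% of such sets. Animals are named here by cohort and number.

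Of the 9 values 5 came from 2 animals. The control wildtype animal C1-6 at P66 had 858 CPM of Gad1 (next 761), 180.0 CPM of Slc32a1 (next 142) and 59.6 CPM of Lhx6 (next 45.002), the highest of its group each time. The separated knockout animal C1-56 at P66 had 219 CPM of Gad2 (next 339) and 46.2 CPM of Nxph1 (next 57.8), the lowest of its group. Its GC tilt of -0.76 was the lowest of all libraries. The other values stood alone. The control knockout animal C1-4 at P22 had 191 CPM of Slc32a1 (next 162), and C2-96 of the same group had 177 CPM of Erbb4 (next 134). The separated wildtype animal C1-14 at P66 had 46.1 CPM of Dlx1 (next 40.9). The control knockout animal C2-76 at P66 had 14.4 CPM of Dlx2 (next 11.1). Without C1-6 and C1-56 the same 6 members passed for age.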

How the results depend on the processing

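No paired analysis was possible because numbers were given anew in each cohort and rearing, and animals that share 1 are different mice. No member passed for genotype, rearing or their interaction under any alternative, and no call was reversed. For age averaged over groups, 6 members passed, 5 to 6 with each library left out in turn, 1 in cohort 1 alone and 2 in cohort 2 alone. Within groups the counts moved more. In control wildtype animals 1 member passed, with 0 in either cohort alone, 2 without the 2 libraries that stand apart, 2 at an adjusted p under 0.1, and 0 to 2 leaving out each library (0 without C1-32 or C2-51 at P22 or C1-58 at P66, 2 without C1-6 at P66). In separated wildtype animals 3 passed, with 1 in either cohort alone, 2 with the GC tilt (Dlx1 had an edgeR adjusted p of 0.0575) and 1 to 4 leaving out each library (1 without C2-90 at P22). In control knockout animals 1 passed, with 0 under no count filter and in either cohort alone, 5 with the excitatory score, 2 with the GC tilt, 3 without the 2 libraries, 4 at an adjusted p under 0.1, and 0 to 3 leaving out each library (0 without C2-77 at P22 or C1-30, C2-41 or C2-42 at P66, 3 without C2-76 at P66). In separated knockout animals 0 passed, with 1 under the excitatory score, 1 without the 2 libraries, 2 at an adjusted p under 0.1, and 0 to 2 leaving out each library (2 without C2-23 at P22). Fewer animals enter each cohort alone; the cause of the other moves was not tested. Over all genes 3707 passed for averaged age and 2176 in cohort 1 alone. For genotype at P66 4 genes passed, with 11 by DESeq2, 0 and 96 in cohorts 1 and 2, 9 with the tilt and 3 to 8 leaving out each library (8 without the separated wildtype animal C1-55). For rearing at P66 26 passed, with 50 under no scaling, 9 under no filter, 98 by DESeq2, 41 with no cohort term, 0 and 2 in cohorts 1 and 2, 17 and 43 with the choroid and excitatory scores, 192 with the tilt, 4 without the 2 libraries and 3 to 75 leaving out each library (3 without the control wildtype animal C1-6, 75 without the separated knockout animal C2-84). Dlx2, with the fewest counts, is the member that depth limits most.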
